A study of Mus musculus with 6 samples.

Results

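The inhibitory checkpoint receptors described here are the products of 8 genes, Pdcd1 (PD-1), Ctla4, Lag3, Tigit, Havcr2 (TIM-3), Cd160, Cd244a (2B4) and Btla. They are all 8 of the genes named for this description, out of 32285 genes in the deposited matrices, and they were chosen by name and not by their values. Each was read in T cells from CT2A tumors, a mouse glioma line growing in the brains of C57BL/6J mice. The mice were wild type (WT), 6 to 8 weeks old, and tumor T cells that carried CD3 with CD4 or CD8 were sorted at day 13 (16 mice, 4 mice to a pool) and at day 19 (4 mice). Both days were therefore tumor-bearing, with no treatment, genetic change or tumor-free group among the samples. The study asked how T cell states differ between early and late tumors, and each day gave 1 capture, read in 3 libraries: 5' RNA of genes, antibody-derived tags and rearranged T cell receptor (TCR) chains, 6 samples in all. The RNA matrices hold 144565182 gene UMIs at day 13 and 81224453 at day 19, where a UMI marks 1 captured RNA molecule.

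With 1 capture per day there is no replicate of a day, so no test was made and no p-value is given. TCR contigs were deposited in 4 tables for each day, and the cells listed in 1 table form a contig set. Values per contig set are printed beside the sums, but the labels do not tie a set to an animal. Between 0% and 20% of the expanded clonotypes of a day-13 set were also seen in another set of that day, and between 15.6% and 60% at day 19. At day 19, 184 of the 1169 cells of set 2 had another multiplexing tag on top, against 0 to 19 cells in the other sets. Some receptors with at least 100 UMIs in the 2 groups together lose or gain a 1.5-fold difference without day-19 set 2. Their ratios between days, or between groups of cells over both days, are given with and without it. Ratios within a day and those of other genes were not recomputed.

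A cell was a contig barcode with at least 5000 UMIs of genes, at most 10% mitochondrial UMIs and at most 3 UMIs of the macrophage genes C1qa, Lyz2 and Csf1r together. This left 3775 cells at day 13 and 2159 at day 19, and 13 barcode sequences occurred on both days. CD8 T cells (no UMI of Cd4 and at least 1 of Cd8a or Cd8b1) numbered 2646 and 1436. CD4 T cells were split by Foxp3, which encodes the factor that defines regulatory T cells, into 349 and 252 Foxp3-negative cells and 150 and 125 Foxp3-positive cells. The Foxp3-positive cells carried the regulatory markers Il2ra in 54.7% and 74.4% of cells and Ikzf2 in 79.3% and 86.4%, while Foxp3 was found in 1.70% and 1.46% of CD8 T cells. The T cell gene Cd3e was found in between 93.3% and 98.8% of the cells of each class. Day-19 set 1 holds 7 Foxp3-negative and 5 Foxp3-positive CD4 T cells.

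T cells acquire most of these receptors after their TCR is engaged, and each receptor can dampen the response when its ligand is met on another cell. PD-1 recruits the phosphatase Shp2 to the TCR and CD28, CTLA-4 competes with CD28 for CD80 and CD86, and TIGIT competes with CD226 for the poliovirus receptor. LAG-3 binds MHC class II, TIM-3 has several ligands that include galectin-9, 2B4 binds CD48, and BTLA and CD160 share the ligand HVEM (gene Tnfrsf14). In tumors and chronic infection, several of them together mark exhausted CD8 T cells, whose progenitors keep the transcription factor TCF-1 (gene Tcf7). BTLA is instead typical of resting lymphocytes, and CTLA-4 and TIGIT of regulatory T cells.

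The stretch before the start of the gene is shown for 4 receptors that illustrate the patterns described here: Pdcd1, Havcr2 and Cd244a, which were higher in expanded CD8 clonotypes, and Btla, which was lower. Each is the 250 bases before a transcript start of RefSeq in build GRCm38.p6, written 5' to 3' on the strand of the gene. Capitals mark matches, on either strand, to 4 motifs: AP-1 (TGANTCA), NFAT (GGAAA), TCF/LEF (CTTTGA) and RUNX (TGTGGT). Pdcd1 lies at chr1:94052554-94052803 (minus strand), Havcr2 at chr11:46454681-46454930 (plus), Cd244a at chr1:171558943-171559192 (plus) and Btla at chr16:45224087-45224336 (plus). The annotated genes span 94038305 to 94052553 for Pdcd1, 46454931 to 46481255 for Havcr2, 171558718 to 171585316 for Cd244a and 45223705 to 45252895 for Btla, so the stretches of Cd244a and Btla lie inside the gene, downstream of its outermost start.
Pdcd1: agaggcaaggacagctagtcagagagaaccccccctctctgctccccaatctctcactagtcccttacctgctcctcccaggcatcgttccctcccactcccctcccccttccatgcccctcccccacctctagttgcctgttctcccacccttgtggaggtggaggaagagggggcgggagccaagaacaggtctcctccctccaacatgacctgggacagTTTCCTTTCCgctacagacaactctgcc
Havcr2: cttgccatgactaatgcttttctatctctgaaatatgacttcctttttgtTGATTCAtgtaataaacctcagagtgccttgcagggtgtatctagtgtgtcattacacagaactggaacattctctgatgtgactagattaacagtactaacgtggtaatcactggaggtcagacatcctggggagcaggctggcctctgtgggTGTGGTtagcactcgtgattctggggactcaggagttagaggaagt
Cd244a: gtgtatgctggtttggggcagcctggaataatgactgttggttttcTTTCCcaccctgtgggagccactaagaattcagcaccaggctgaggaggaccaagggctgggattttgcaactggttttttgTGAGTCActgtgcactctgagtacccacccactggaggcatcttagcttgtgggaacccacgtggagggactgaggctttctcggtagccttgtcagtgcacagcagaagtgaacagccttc
Btla: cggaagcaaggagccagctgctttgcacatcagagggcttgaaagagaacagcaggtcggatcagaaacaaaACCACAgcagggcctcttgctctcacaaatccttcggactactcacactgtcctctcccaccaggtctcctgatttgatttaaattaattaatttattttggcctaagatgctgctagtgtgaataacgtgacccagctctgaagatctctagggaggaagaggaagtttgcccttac
The Pdcd1 stretch holds 2 NFAT matches, the Havcr2 stretch 1 AP-1 and 1 RUNX match, the Cd244a stretch 1 AP-1 and 1 NFAT match, and the Btla stretch 1 RUNX match. Among 32851 RefSeq promoter stretches of the same length, 6.75% hold the AP-1 letters, 55.6% NFAT, 13.8% TCF/LEF and 14.05% RUNX. A match is a description of letters only. Promoter entries were found for 7 of the 8 genes (all but Lag3), and among their entries the TCF/LEF letters occurred only in 1 of the 2 of Cd160. The other genes lie at 60909025 to 60915832 on chromosome 1 (Ctla4), 124904359 to 124912434 on chromosome 6 (Lag3), 43626137 to 43665125 on chromosome 16 (Tigit) and 96798763 to 96829351 on chromosome 3 (Cd160).

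In CD8 T cells, 4 of the 8 receptors were at least 1.5-fold higher at day 19 than at day 13 (Lag3, Havcr2, Cd160 and Cd244a) and Btla was lower. Over all 10052 genes with at least 100 UMIs, 5.26% were that much higher and 7.33% that much lower. Levels are CPM, the UMIs of a gene per 1000000 gene UMIs of the class, with the range over the 4 contig sets. The 95% intervals of the log2 ratios cover counting error only. Values are compared between classes and days for each gene, and not between genes.

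Pdcd1 measured 209 CPM at day 13, with sets at 199, 231, 183 and 217, and 286 at day 19, with sets at 204, 344, 242 and 230.0. The sets overlapped, and day-19 set 2 was the highest. The log2 ratio of day 19 over day 13 was 0.45 (0.39 to 0.51), and 0.13 without day-19 set 2. Lag3 measured 157 CPM at day 13, with sets at 158, 195, 124 and 145, and 256 at day 19, with sets at 151, 304, 295 and 155. Sets 2 and 3 of day 19 stood above every day-13 set, while sets 1 and 4 lay among them. Its log2 ratio was 0.70 (0.64 to 0.76), and 0.41 without day-19 set 2, below 1.5-fold. Tigit went from 149 CPM (137 to 181) to 221 (136 to 249.5), a log2 ratio of 0.57 just short of 1.5-fold. It passed 1.5-fold under 7 alternatives (0.60 to 0.71), among them leaving out set 4 of day 13 (0.65) or of day 19 (0.71), and was 0.38 without day-19 set 2. Ctla4 was level, at 184 CPM (164 to 203) and 175 (138 to 196), a log2 ratio of -0.07 that was -0.25 without day-19 set 2.

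Havcr2, whose product marks terminally exhausted cells, measured 27.1 CPM at day 13, with sets at 35.6, 25.8, 19.5 and 37.9, and 55.3 at day 19, with sets at 34.3, 65.3, 66.3 and 31.3. Sets 2 and 3 of day 19 were again above all day-13 sets and sets 1 and 4 were not, and the log2 ratio of 1.03 (0.88 to 1.18) was 0.75 without day-19 set 2. Cd244a measured 9.93 CPM at day 13, with sets at 10.6, 8.39, 8.90 and 14.3, and 36.1 at day 19, with sets at 24.7, 42.9, 32.9 and 28.6. This was the only receptor of the 8 whose day-19 sets all stood above all day-13 sets in CD8 T cells, a pattern shown by 8.22% of the genes. Its log2 ratio was 1.86 (1.64 to 2.08), and 1.57 without day-19 set 2.

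Cd160, a receptor of cytotoxic lymphocytes, measured 60.5 CPM (50.1 to 76.8) at day 13 and 93.8 (69.5 to 123) at day 19, a log2 ratio of 0.63 that was 0.50 without day-13 set 2. Btla measured 9.80 CPM (9.30 to 10.2) and 6.36 (5.33 to 10.0), a log2 ratio of -0.62, or -0.41 without day-19 set 2. Without day-19 set 2, which holds 1169 of the 2159 cells of that day, 3 receptors were at least 1.5-fold higher and none was lower. Cd244a passed 1.5-fold under each alternative run, while Lag3, Havcr2, Cd160 and Btla each missed it under at least 1. The median log2 ratio over the 8 receptors was 0.60, against -0.04 over all genes, and 0.39 without that set. Markers listed for other cells differed between the days in the same CD8 T cells. Of the NK cell markers, Klrb1c went from 10.9 to 33.6 CPM and Ncr1 from 1.32 to 0.998, a sum of 12.2 (sets 8.39 to 18.8) and 34.6 (10.95 to 68.1), and whether the Klrb1c RNA is that of the T cells themselves was not tested. The choroid plexus markers Ttr and Enpp2 together went from 2.23 CPM (1.08 to 4.17) to 125 (0.381 to 418). Without the cells that held a UMI of any of these 4 genes, a comparison chosen after the data were seen, Lag3 (0.70), Havcr2 (1.05), Cd160 (0.66) and Cd244a (1.77) were still at least 1.5-fold higher, and Btla (-0.47) was short of 1.5-fold. Summed, the dendritic cell markers were lower, at 149 and 54.0 CPM, most of it Fscn1, although Cd209a was higher (1.57 and 2.50). Without cells with a UMI of the dendritic, B and plasma cell markers, also chosen after the data were seen, Cd160 (0.56) no longer passed 1.5-fold and Tigit (0.61) did, beside Lag3, Havcr2, Cd244a and Btla.

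Macrophage droplets of the same captures, 633 and 230 in number, set a background for single cells. They were barcodes outside the contig tables with no UMI of T cell genes and more than 3 UMIs of C1qa, Lyz2 and Csf1r together. C1qa was found in 41.2% and 49.6% of them after thinning, and other myeloid cells were not told apart from macrophages. After each cell was thinned to 5000 UMIs, Pdcd1 was found in 0.948% and 1.74% of these droplets, Ctla4 in 0.790% and 0.870%, Tigit in 1.26% and 1.30%, and Cd160 in 0.158% and 0.00%. In CD8 T cells, Pdcd1 was found in 33.9% and 43.0% of cells (41.0% and 50.4% unthinned), far above the droplets. Havcr2 was found in 6.92% of CD8 T cells at day 13 and 16.2% at day 19 (11.1% and 26.8% unthinned), and Cd244a in 3.10% and 12.6% (6.20% and 25.0%). RNA of Havcr2, Lag3 and Cd244a was found in 42.7%, 20.5% and 10.6% of the day-13 droplets, so the droplets are no background for these 3. Btla was found in 3.63% and 4.35% of the droplets and in 4.46% and 3.76% of CD8 T cells, but its level in the droplets (8.76 and 12.2 CPM) was close to that in empty droplets of at most 100 UMIs (11.3 and 14.4), while Pdcd1 was at 2.39 and 3.36 against 148 and 210 there. The droplets are therefore no background for Btla either, and how much of its low share in CD8 T cells is free RNA was not tested. In CD8 T cells without any UMI of C1qa, Lyz2 and Csf1r the log2 ratio of the days was 0.98 for Havcr2, 0.62 for Lag3 and 1.88 for Cd244a. Median depths were 7199 and 9097.5 UMIs in CD8 T cells and 9195 and 9603.5 in the droplets.

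**Figure D1:**
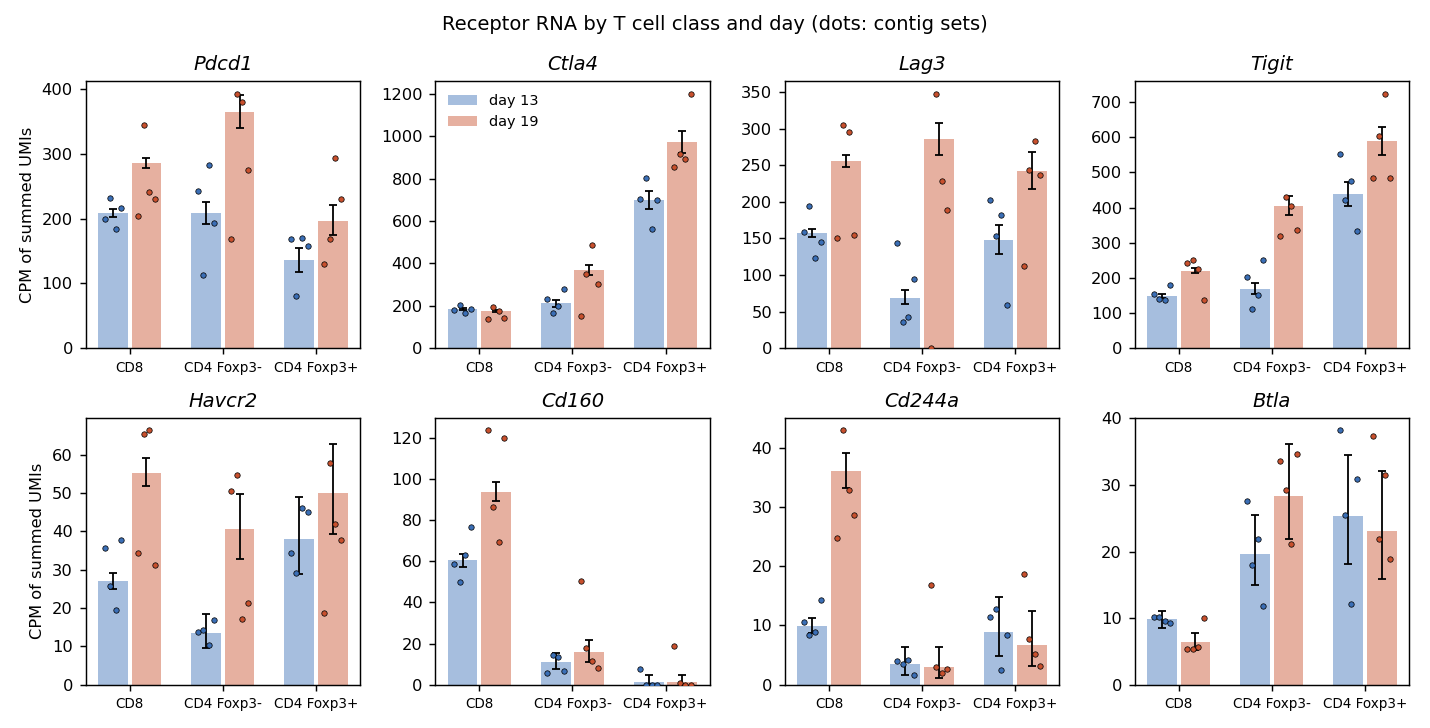
Level of each receptor's RNA (CPM of summed UMIs, bars, linear axis from 0) in CD8, Foxp3-negative CD4 and Foxp3-positive CD4 T cells at day 13 (blue) and day 19 (red), with 95% counting intervals and a dot for each of the 4 contig sets. Cd160 and Cd244a stand highest in CD8 T cells, Ctla4 and Tigit in Foxp3-positive CD4 T cells, and Btla is lowest in CD8 T cells.

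Foxp3-negative CD4 T cells held more receptor RNA at day 19 as well. Of the 6 receptors with at least 100 UMIs in both days together, 5 were at least 1.5-fold higher at day 19 (Pdcd1, Ctla4, Lag3, Tigit and Havcr2) and none was lower, against 5.41% of 5915 genes. Lag3 measured 69.1 CPM at day 13, with sets at 144, 35.9, 42.7 and 94.9, and 286 at day 19, with sets at 0, 348, 229 and 189. The 0 comes from the 7 cells of day-19 set 1, and the other 3 sets stood above all day-13 sets. The log2 ratio was 2.05 (1.82 to 2.28), and 1.52 without day-19 set 2. Tigit measured 169 CPM, with sets at 203, 110.0, 151 and 251, and then 406, with sets at 319, 429, 405 and 336. Its day-19 sets all stood above the day-13 sets, as they did for Havcr2 and for 4.6% of the genes, and its log2 ratio was 1.27.

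Havcr2 went from 13.5 CPM (10.4 to 17.0) to 40.6 (17.3 to 54.7) in these cells, a log2 ratio of 1.59 (1.04 to 2.17) that was 0.63 without day-19 set 2. Pdcd1 went from 208 CPM (112 to 282) to 365 (168 to 393), and Ctla4 from 212 (165 to 281) to 369 (151 to 486), log2 ratios of 0.81 and 0.80. With equal weight to each contig set these 2 ratios were 0.55 and 0.56, and with a minimum of 1000 UMIs per cell 0.58 and 0.54, all short of 1.5-fold, as was Pdcd1 without day-13 set 2 (0.56). The receptors that are sparse in CD4 T cells had wide intervals. Btla measured 19.7 and 28.4 CPM with a log2 ratio interval from -0.01 to 1.07, and Cd160 and Cd244a had 32 and 36, and 10 and 7 UMIs. The summed level of the 6 macrophage markers went from 72.6 to 151 CPM in the same cells (sets 39.0 to 96.8, then 100.9 to 186), with C1qa, C1qb, Apoe and Adgre1 higher and Lyz2 (14.5 to 10.04) and Csf1r (7.26 to 5.68) lower, and that of the choroid plexus markers Ttr and Enpp2 from 1.73 to 227 (0 to 3.12, then 0 to 987). Among cells without a UMI of C1qa, Lyz2 and Csf1r the Havcr2 ratio was 1.30 and the Lag3 ratio 2.41. The dendritic cell markers went the other way, from 306 CPM (sets 11.8 to 427) to 60.7 (1.92 to 219), most of it Fscn1 (264 to 25.3), although Cd209a (13.8 to 22.7) and Xcr1 (3.46 to 3.93) were higher. The B cell markers were lower too, from 59.8 (3.12 to 320) to 22.7 (0 to 34.6), and the plasma cell markers, from 13.1 to 0.873. Without cells with a UMI of those markers the ratios were 2.15 for Havcr2, 2.04 for Lag3, 1.08 for Tigit, 0.92 for Pdcd1 and 0.71 for Ctla4. Without cells with a UMI of the NK cell and choroid plexus markers they were 1.59 for Havcr2, 1.95 for Lag3 and 1.30 for Tigit.

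In Foxp3-positive CD4 T cells the median difference between days was smaller, and whether it differed from that of Foxp3-negative cells was not tested. Of the 5 receptors with at least 100 UMIs, Lag3 alone was past 1.5-fold, against 7.01% of 4350 genes, at 147 CPM (59.1 to 202) and 242 (112 to 283). Ctla4 measured 699.9 CPM at day 13, with sets at 702, 802, 562 and 700.5, and 972 at day 19, with sets at 857, 917, 892 and 1201. All day-19 sets stood above the day-13 sets, as did 5.95% of genes, although the log2 ratio was 0.47 (0.36 to 0.59). Pdcd1 went from 135 CPM (80.1 to 169) to 196 (130.5 to 294), a log2 ratio of 0.54, and Tigit from 438 (335 to 553) to 589 (485 to 724), a log2 ratio of 0.43. Cd160 had 2 UMIs on each day, so the median log2 ratio of 0.43 is over 7 receptors, against 0.03 over all genes. Some markers listed for other cells were also higher in the Foxp3-positive cells of day 13. The summed dendritic cell markers were 557 CPM (sets 384 to 881) against 72.4 (18.6 to 147) at day 19. Most of the day-13 sum was Fscn1 (437 against 20.3), while Siglech (5.06 against 8.12) and Xcr1 (0.633 against 0.677) were not lower at day 19. The plasma cell markers Jchain and Mzb1 were 228 (0 to 864) against 0. Whether any of this RNA is that of other cells was not tested. Without cells holding a UMI of the dendritic, B and plasma cell markers, a comparison chosen after the data were seen, Lag3 again passed 1.5-fold alone and the median was 0.38. Among cells without a UMI of C1qa, Lyz2 and Csf1r, however, the Lag3 ratio was 0.24 and Havcr2 passed instead (0.97), and without day-19 set 2 Pdcd1 (0.84) and Ctla4 (0.60) passed beside Lag3 (0.71). The Lag3 ratio of 0.72 was also short of 1.5-fold with equal weight to each contig set (0.56), with a top multiplexing tag of at least 80% (0.50), with at least 2 UMIs to set the class (0.47), among cells with at least 10000 UMIs (0.18) and without day-13 set 4 (0.48). Without the 8% of cells with the most UMIs it was 1.33, and Pdcd1 (0.66), Tigit (0.67) and Havcr2 (0.73) passed as well. The Lag3 difference between days in these cells therefore depends on the cells kept.

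Foxp3-positive and Foxp3-negative CD4 T cells of the same captures carried different receptors. Over both days, 3 of the 6 receptors with at least 100 UMIs were at least 1.5-fold higher in Foxp3-positive cells (Ctla4, Tigit and Havcr2) and Pdcd1 was lower, against 7.81% and 5.05% of 7289 genes. Ctla4 was at 832 CPM in Foxp3-positive and 281 in Foxp3-negative cells, a log2 ratio of 1.56 (1.47 to 1.66). Tigit was at 511 and 273 CPM, a ratio of 0.90 (0.80 to 1.01). By day its ratio was 1.38 at day 13 and 0.54 at day 19, short of 1.5-fold, while that of Ctla4 was 1.73 and 1.40. The median over the 8 receptors was 1.23 at day 13 and 0.03 at day 19. Ctla4 and Tigit were higher in 8 of 8 contig sets, as were 4.25% of genes. Pdcd1 went the other way, at 165 against 277 CPM, a ratio of -0.75 (-0.90 to -0.60), with the lower level in 8 of 8 sets, as were 4.1% of genes. In the comparison without cells holding RNA of the dendritic, B or plasma cell markers, Pdcd1 was no longer past 1.5-fold (-0.56). The same held with equal weight to each contig set (-0.55), without cells with a UMI of Mki67 or Top2a (-0.53) and without day-19 set 2 (-0.54).

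Havcr2 was at 43.8 against 25.5 CPM and higher in 7 of 8 sets, although at day 19 the 2 classes came close (50.1 and 40.6 CPM). Its ratio of 0.78 was 0.53 among cells with at least 10000 UMIs, short of 1.5-fold. Lag3 lay on different sides on the 2 days. It was at 147 CPM in Foxp3-positive and 69.1 in Foxp3-negative cells at day 13, and at 242 and 286 at day 19, log2 ratios of 1.09 and -0.24. Over both days the ratio was 0.23, and 0.76 without day-19 set 2. Cd160 was nearly absent from Foxp3-positive cells, with 4 UMIs against 68. Btla was even, at 24.2 and 23.5 CPM.

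CD8 and Foxp3-negative CD4 T cells were furthest apart in Cd244a, Cd160 and Btla. Cd160 and Cd244a were higher in CD8 T cells, at 73.8 against 13.1 CPM and 20.3 against 3.28, log2 ratios of 2.49 (2.14 to 2.86) and 2.63 (1.95 to 3.42) that held in 8 of 8 sets, as for 6.79% of 10292 genes. Btla was lower in CD8 T cells in 8 of 8 sets, as were 8.45% of genes, at 8.43 against 23.5 CPM and a ratio of -1.48 (-1.78 to -1.17). Over both days 3 of the 8 receptors were at least 1.5-fold higher in CD8 T cells, with Havcr2 beside Cd160 and Cd244a, against 8.94% of genes, and 3 were lower, with Ctla4 and Tigit beside Btla, against 12.4%. The days differed for these additional receptors. Ctla4 was at 184 CPM in CD8 and 212 in Foxp3-negative CD4 T cells at day 13 and at 175 and 369 at day 19, log2 ratios of -0.20 and -1.08. Tigit had ratios of -0.18 and -0.88, and Havcr2 of 1.01 and 0.45. Lag3 was higher in CD8 T cells at day 13, at 157 against 69.1 CPM (ratio 1.19, 0.98 to 1.40, 4 of 4 sets), and at 256 against 286 at day 19 (-0.16). Without day-19 set 2 the ratios over both days were -0.54 for Ctla4 and -0.45 for Tigit, short of 1.5-fold, and 0.75 for Lag3, past it. Ctla4 (-0.52), Tigit (-0.58) and Havcr2 (0.45) were also short of it without day-19 set 3, as was Tigit without day-19 set 4 (-0.57). The Havcr2 ratio of 0.59 missed 1.5-fold without day-13 set 1 (0.53), 3 (0.58) or 4 (0.53) as well. Pdcd1 was even at day 13 (209 and 208 CPM) and at 286 against 365 at day 19. The order of each receptor's levels over the 6 combinations of class and day follows from these values: Ctla4 and Tigit were highest in Foxp3-positive cells at day 19, Pdcd1, Lag3 and Btla in Foxp3-negative cells at day 19, and Havcr2, Cd160 and Cd244a in CD8 T cells at day 19. The highest level and the next one had overlapping contig sets for Pdcd1, Lag3, Tigit, Havcr2, Cd160 and Btla.

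**Figure D2:**
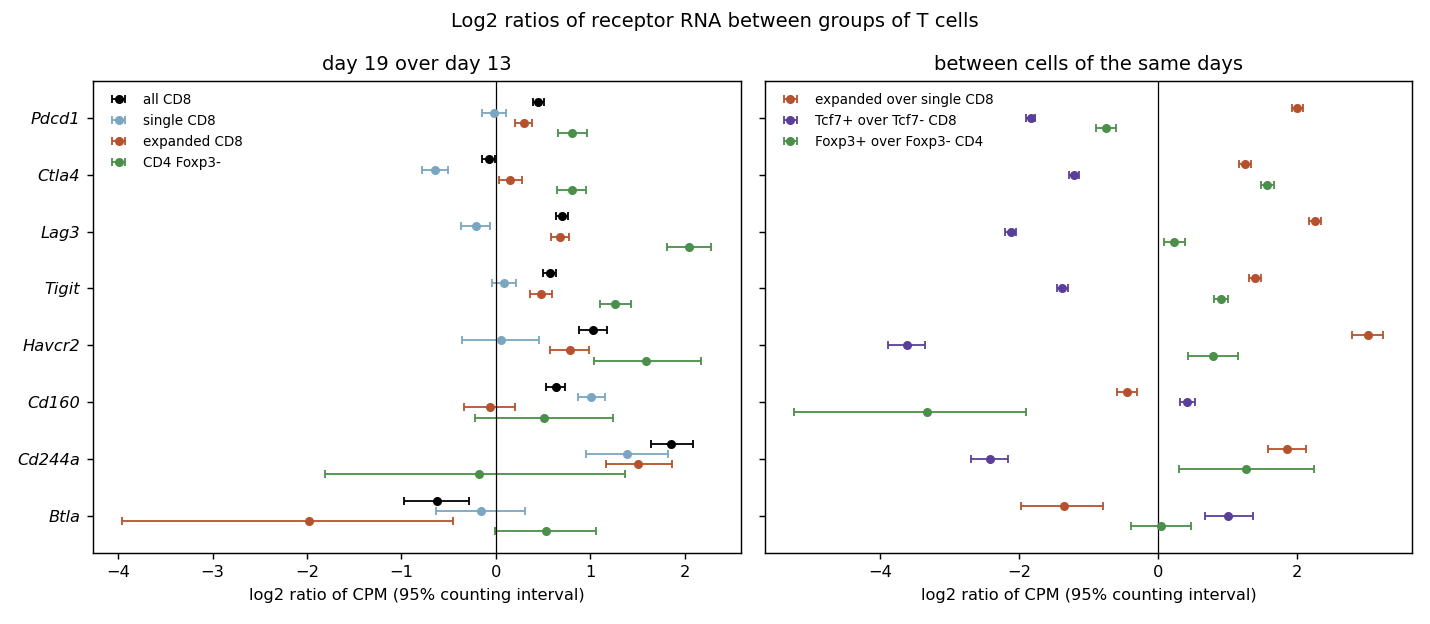
Log2 ratio of CPM for each receptor with its 95% counting interval, on the left for day 19 over day 13 in 4 groups of T cells and on the right between groups of cells of both days. On the right, Havcr2 reaches 3.01 for expanded over single CD8 clonotypes and -3.62 for Tcf7-positive over Tcf7-negative cells, while Btla lies on the opposite side of 0 in both.

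In CD8 T cells the receptors differed between expanded and single clonotypes, with Havcr2, Lag3 and Pdcd1 in front. A clonotype is a pair of identical TRA and TRB CDR3 nucleotide sequences within a contig set, in cells with exactly 1 productive chain of each kind. Such a pair was found for 1933 (73.1%) and 944 (65.7%) of the CD8 T cells. Single cells, the only member of their clonotype, numbered 1381 and 647, and cells of expanded clonotypes (at least 3 cells) 445 and 251. Over both days 6 of the 8 receptors were at least 1.5-fold higher in expanded than in single cells, against 10.7% of 9463 genes, and all 6 were higher in 8 of 8 contig sets, as were 9.24% of genes. Btla was lower, against 7.67% of genes, and Cd160 did not pass 1.5-fold.

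Havcr2 differed most between expanded and single cells. It was at 75.8 CPM in expanded and 11.8 in single CD8 T cells at day 13, and at 130.5 and 12.2 at day 19. Expanded cells of the contig sets measured 92.2, 59.6, 59.2 and 129 CPM at day 13 and 59.6, 144, 160.1 and 83.2 at day 19, and single cells 8.07 to 21.1 and 11.4 to 13.3. No set of single cells reached any set of expanded cells, and the log2 ratio over both days was 3.01 (2.79 to 3.23). Lag3 was at 340.4 against 91.9 CPM at day 13 and at 545 against 79.2 at day 19, with expanded sets from 302 to 423 and from 328 to 644. Pdcd1 was at 446 against 122 and at 547 against 119.8, with expanded sets from 366 to 531 and from 281 to 645. The log2 ratios over both days were 2.26 (2.17 to 2.35) for Lag3 and 2.00 (1.93 to 2.08) for Pdcd1.

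Cd244a (37.0 against 10.3 CPM), Tigit (301 against 114) and Ctla4 (285 against 119.8) followed, with log2 ratios of 1.85, 1.40 and 1.25. Btla was at 3.74 CPM in expanded and 9.61 in single cells, a ratio of -1.36 (-1.97 to -0.80) from 30 and 176 UMIs, and was lower in 7 of 8 sets. Cd160 differed by day. It was even at day 13 (64.6 and 63.1 CPM), while at day 19 it was at 61.8 CPM in expanded and 127 in single cells, a ratio of -1.04 (-1.28 to -0.81), with the lower level in 4 of 4 sets, as were 15.9% of 7386 genes. The median ratio over the 8 receptors was 1.62, against 0.09 over all genes, and these 6 receptors were at least 1.5-fold higher under each alternative run. Expanded cells were deeper, with a median of 8307 UMIs against 6909 at day 13 and 10675 against 8044 at day 19, and among cells with at least 10000 UMIs the median ratio was 1.15 and Cd160 was past 1.5-fold lower in expanded cells (-0.84).

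The receptors followed clonotype size in different ways. Pdcd1 at day 19 measured 119.8, 299, 449 and 616 CPM in clonotypes of 1, 2, 3 to 9 and at least 10 cells, and each interval lay above the one before it. At day 13 the values were 122, 383, 401 and 497, and the 2 middle intervals overlapped. Lag3 at day 19 measured 79.2, 283, 411 and 639.8 CPM, again without overlap of the intervals, but at day 13 it was highest in the clonotypes of 3 to 9 cells (91.9, 281, 369.8 and 307). These intervals cover counting error only. The day-19 clonotypes of at least 10 cells were 5, and ranged from 424 to 771 CPM for Pdcd1 and from 300.5 to 759 for Lag3. The lowest of them thus lay below the summed value of the clonotypes of 3 to 9 cells. Ctla4 was already at its level in clonotypes of 2 cells at day 13 (138, 335, 279.6 and 267 CPM), with no higher value in the larger ones. At day 19 it measured 88.4, 243, 300 and 307 CPM, with overlapping intervals between neighbouring sizes from 2 cells on. Cd244a at day 13 measured 12.9 and 14.3 CPM in clonotypes of 2 and of 3 to 9 cells and 30.3 in the largest.

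**Figure D3:**
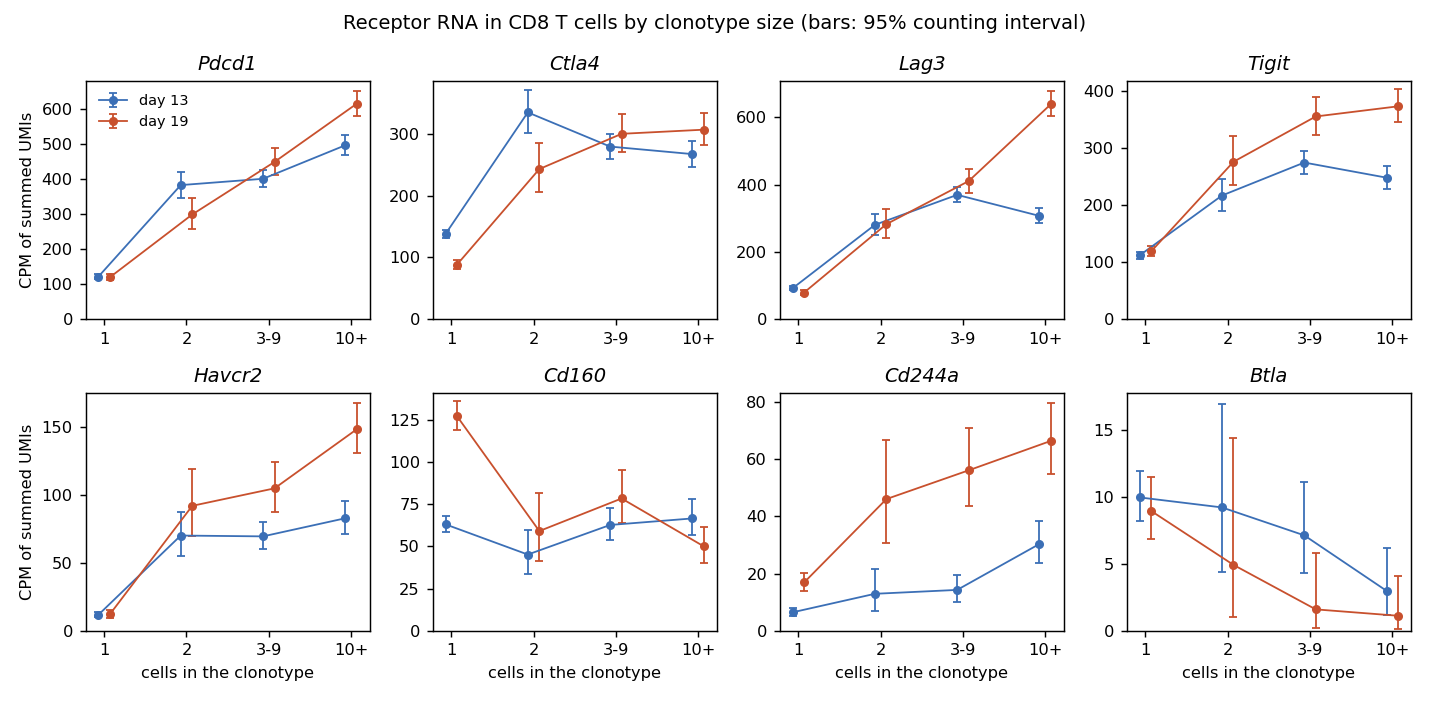
Level of each receptor's RNA (CPM of summed UMIs, linear axis) in CD8 T cells by the number of cells in the clonotype (1, 2, 3 to 9, at least 10), at day 13 (blue) and day 19 (red), with 95% counting intervals. Pdcd1 and Lag3 at day 19 are higher at every step, Ctla4 at day 13 is highest in clonotypes of 2 cells, Btla is lowest in the largest clonotypes, and Cd160 is highest in single cells at day 19.

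Single and expanded CD8 T cells were also compared between days. In single cells Cd160 and Cd244a were higher at day 19, at 127 against 63.1 CPM and 16.9 against 6.45, log2 ratios of 1.01 (0.87 to 1.16) and 1.39 (0.95 to 1.83). Their day-19 sets all stood above the day-13 sets, as for 8.4% of 8807 genes, and they were the 2 receptors that were higher by 1.5-fold, against 5.43% of genes. Ctla4 was lower in single cells at day 19, at 88.4 against 138 CPM, a ratio of -0.64 (-0.78 to -0.50), past 1.5-fold as were 5.73% of genes. Its sets were at 168, 140.4, 124 and 140.02 CPM at day 13 and at 129, 67.6, 92.6 and 97.8 at day 19, so day-19 set 1 lay among the day-13 sets, and without day-19 set 2 the ratio was -0.42, short of 1.5-fold. Pdcd1 (119.8 and 122 CPM), Tigit (119 and 112) and Havcr2 (12.2 and 11.8) had log2 ratio intervals in single cells that included 0, and Lag3 had a ratio of -0.21 (-0.37 to -0.06).

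In expanded CD8 T cells Lag3, Havcr2 and Cd244a were at least 1.5-fold higher at day 19, 3 of the 7 receptors with at least 100 UMIs, against 3.89% of 7011 genes. Cd244a was at 62.1 against 21.8 CPM, a ratio of 1.51 (1.16 to 1.86), with day-19 sets from 46.8 to 78.8 above day-13 sets from 15.2 to 41.6, as for 2.28% of genes. Lag3 and Havcr2 had ratios of 0.68 (0.58 to 0.78) and 0.78 (0.58 to 0.99) with overlapping sets. The Lag3 ratio was 0.57 when set 2 of day 19 was left out and 0.58 for set 3, and Havcr2 was at 0.48 without day-13 set 2, each short of 1.5-fold, while Cd244a stayed past it without any 1 set (1.09 to 1.86). Tigit had a ratio of 0.48, which passed 1.5-fold without day-19 set 4 (0.59). Pdcd1 (0.30) and Ctla4 (0.15) stayed within 1.5-fold, and Cd160 was even (61.8 and 64.6 CPM). The share of CD8 T cells in expanded clonotypes was alike, at 16.8% and 17.5%, and that of cells with a Tcf7 UMI was 64.3% at day 13 and 47.4% at day 19.

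Expanded Foxp3-negative CD4 T cells were few, 8 at day 13 and 52 at day 19. Single Foxp3-negative cells numbered 199 and 113, so the expanded cells are mostly of day 19, when these receptors were higher, and the comparison is read within day 19. There Lag3 was at 446 CPM in expanded and 167 in single cells (log2 ratio 1.42, 1.12 to 1.72), Tigit at 576 and 307 (0.91), Ctla4 at 529 and 290.1 (0.87) and Pdcd1 at 477 and 284 (0.75). At day 13, from 8 expanded cells, Lag3 had a ratio of 2.97, Tigit of 1.84 and Pdcd1 of 1.18, while Ctla4 was at 199 against 224 CPM with an interval that included 0. Over both days all 4 of these receptors, those with at least 100 UMIs, were at least 1.5-fold higher in expanded cells, against 6.18% of 4354 genes, but these sums mix the days. Tigit was higher in 6 of the 6 sets that held both kinds of cells, as were 1.1% of genes, while Pdcd1 was higher in 3 of these sets.

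Tcf7, the gene of TCF-1, separated the receptors within CD8 T cells. Pdcd1, Ctla4, Lag3, Tigit, Havcr2 and Cd244a were all at least 1.5-fold lower in the 1702 and 681 cells with a Tcf7 UMI than in those without, in 8 of 8 sets, against 9.91% of 10052 genes past that fold and 12% lower in every set. Havcr2 was at 6.12 against 75.1 CPM, giving a log2 ratio of -3.62 (-3.89 to -3.36). Lag3 was at 76.6 against 333, a ratio of -2.12. Pdcd1 RNA remained in Tcf7-positive cells, at 109 against 388 CPM. Btla was higher with Tcf7, at 11.02 against 5.48 CPM, 1 of the 8 receptors against 6.93% of genes, and Cd160 was within 1.5-fold (83.6 and 62.5). These sums mix days with unequal shares of Tcf7-positive cells, and within the days the Btla ratio was 0.53 at day 13, short of 1.5-fold, and 1.86 at day 19, while that of Cd160 was 0.21 and 0.80. The other 6 receptors had negative ratios on both days, from -3.12 to -0.996 at day 13 and from -4.17 to -1.70 at day 19.

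Within expanded CD8 T cells alone, where 104 cells at day 13 and 19 at day 19 held a Tcf7 UMI, the Tcf7 contrast was smaller. The median log2 ratio over the 8 receptors was -0.72 there against -1.61 in all CD8 T cells. Pdcd1, Lag3, Tigit, Havcr2 and Cd244a were still at least 1.5-fold lower, 5 receptors against 9.23% of 7011 genes, and Ctla4 was not (243 and 292 CPM). These sums mix days with unequal shares of Tcf7-positive cells. Within the days the median over the receptors was -0.50 and -1.03, and the ratios were -0.67 and -1.05 for Pdcd1, -0.32 and -1.17 for Lag3, -0.68 and -0.60 for Tigit, -0.16 and -0.60 for Ctla4, -1.48 and -2.39 for Havcr2, and -2.65 and -1.03 for Cd244a. Ctla4 thus passed 1.5-fold within day 19, from 39 UMIs in 19 Tcf7-positive cells, and Lag3 did not within day 13. Over both days Lag3 missed 1.5-fold without day-19 set 2 (-0.45), and Tigit without day-13 set 2 (-0.53). Havcr2 was at 30.3 against 108 CPM and Cd244a at 8.65 against 41.7.

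Cycling CD8 T cells were those with a UMI of the proliferation genes Mki67 or Top2a. Over both days Havcr2 and Cd244a were at least 1.5-fold higher in cycling cells (52.0 against 29.0 CPM and 27.9 against 15.2), 2 of the 8 receptors against 14.8% of genes, and Btla was lower (6.17 against 9.98), against 7.5%. Within day 13 Havcr2 and Cd244a had log2 ratios of 1.25 and 1.29, and within day 19 of 0.31 and 0.36. The Btla ratio was -0.43 at day 13, short of 1.5-fold, and -1.01 at day 19. Without day-19 set 2 Pdcd1 also passed 1.5-fold (0.60, from 0.45), and without day-19 set 3 Btla did not (-0.58). Cd160 was the only receptor higher in 8 of 8 sets, at 86.1 against 65.3 CPM, a pattern of 20.5% of genes. Cycling cells were deeper, with medians of 12246 and 14845.5 UMIs against 6792.5 and 7672.5, so that depth moves with this comparison. Cycling cells made up 22.6% of CD8 T cells at day 13 and 34.3% at day 19.

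Single CD8 T cells often carried several of the receptors at once. With each cell thinned to 5000 UMIs, 27.1% of CD8 T cells at day 13 and 23.5% at day 19 had a UMI of none of the 8. The share with at least 3 was 28.6% (exact binomial interval 26.9 to 30.3, sets 24.3 to 32.8) at day 13 and 44.99% (42.4 to 47.6, sets 35.4 to 51.3) at day 19. Every day-19 set stood above every day-13 set, and the difference was 16.4 percentage points, or 9.48 without day-19 set 2. Unthinned, the shares were 40.4% and 54.0%. In Foxp3-negative CD4 T cells the share went from 20.9% to 48.4%, and in Foxp3-positive cells from 42.7% to 63.2%.

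The number of receptors followed clonotype size. Of single CD8 T cells 15.9% at day 13 and 19.3% at day 19 had at least 3 receptors, and the shares were 52.3% and 78.3% in clonotypes of 2 cells, 66.8% and 81.0% in those of 3 to 9, and 73.3% and 94.5% in those of at least 10. In the largest day-19 clonotypes 38.4% of cells held at least 5 of the 8. No CD8 T cell held all 8. The mean number per cell in these largest clonotypes was 3.21 at day 13 and 4.11 at day 19.

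**Figure D4:**
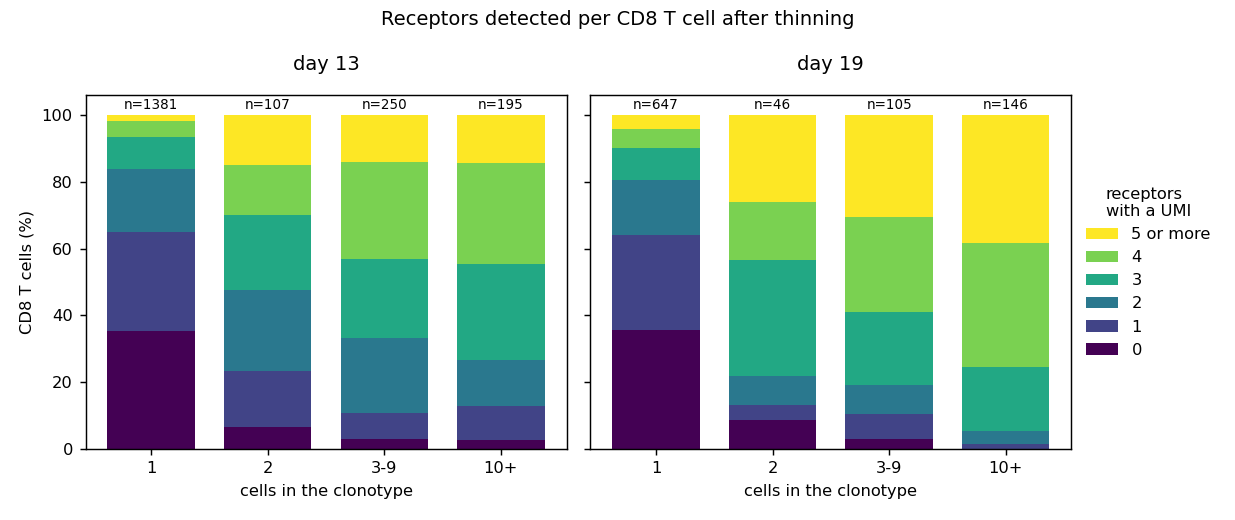
Share of CD8 T cells (%) with 0, 1, 2, 3, 4 or at least 5 of the 8 receptors after thinning to 5000 UMIs, by the number of cells in the clonotype, at day 13 (left) and day 19 (right), with the number of cells above each column. Cells with at least 3 receptors make up 15.9% of single cells and 73.3% of the largest clonotypes at day 13, and 19.3% and 94.5% at day 19.

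The most frequent combination of more than 1 receptor was Pdcd1 with Ctla4, Lag3 and Tigit, in 4.76% of CD8 T cells at day 13 and 5.99% at day 19. At day 19 the same 4 with Havcr2 followed at 4.32%. Cd160 was often found alone, in 4.88% and 7.31% of cells. In Foxp3-positive CD4 T cells the most frequent combination was Ctla4 with Tigit (21.3% and 18.4%). In Foxp3-negative CD4 T cells of day 19 it was again Pdcd1, Ctla4, Lag3 and Tigit, at 9.52%.

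Most pairs of receptors were found in the same CD8 T cell more often than their separate shares give. The cells share a library and depth was set equal by thinning, so the odds ratios are descriptions without a p. Pdcd1 and Lag3 were found together in 516 CD8 T cells at day 13, where 270.9 would follow from independence, and in 470 at day 19 against 259.5, log2 odds ratios of 2.81 and 4.03. Pdcd1 with Havcr2 gave 3.02 and 3.24, and Lag3 with Havcr2 gave 2.59 and 3.52. Over pairs with an expected count of at least 5, 19 of 27 ratios were above 0 at day 13 and 17 of 28 at day 19, with medians of 1.40 and 1.47.

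The pairs below 0 were those of Btla and Cd160. Btla was found with Pdcd1 in 10 cells at day 19 against 23.2 expected, with Lag3 in 9 against 22.7 and with Tigit in 10 against 25.3, log2 odds ratios of -1.79, -1.92 and -2.02. At day 13 no pair with an expected count of at least 5 had a ratio below -0.78. The ratios of Cd160 at day 19 lay between -0.61 (with Ctla4) and 0.20 (with Btla), and its ratio with Cd244a was 1.66 at day 13 and -0.12 at day 19. Within single cells the medians were 0.70 and 1.32, and within expanded cells they were 0.09 and 0.40. In expanded cells at day 19 Pdcd1 with Lag3 had a ratio of 1.10 and Pdcd1 with Cd160 one of -1.24. In Foxp3-positive CD4 T cells Tigit with Lag3 gave 1.57 and 4.52 and Tigit with Btla -1.55 and -4.74, the last from 2 cells against 8.16 expected.

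**Figure D5:**
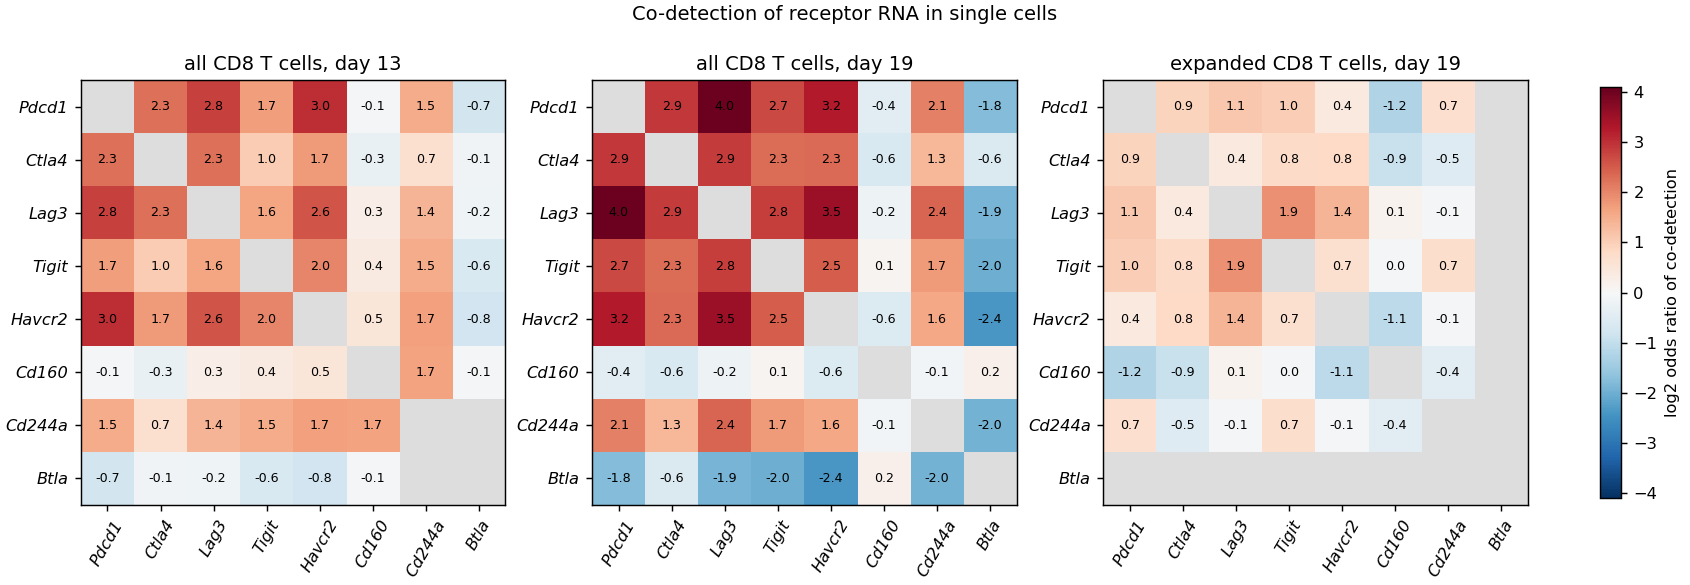
Log2 odds ratio of finding a UMI of both receptors in the same CD8 T cell after thinning to 5000 UMIs, for all CD8 T cells at day 13, all at day 19 and expanded clonotypes at day 19 (red above 0, blue below, grey for pairs with an expected joint count under 5). The block of Pdcd1, Ctla4, Lag3, Tigit and Havcr2 is red in all CD8 T cells on both days, with Pdcd1 and Lag3 at 2.81 and 4.03, and is paler within expanded clonotypes.

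The genes whose detection followed each receptor most closely over CD8 T cells were ranked by the lower of the 2 days' Pearson correlations among 6632 genes, on the log2 scale of thinned UMIs plus 1. The cells share depth and library, and the values are descriptions. For Pdcd1 they were Lag3 (0.45 and 0.55), Ctla4 (0.37 and 0.44) and S100a6 (0.36 and 0.58). For Lag3 they were Pdcd1, AW112010 (0.38 and 0.52) and Cd8b1. For Havcr2 they were Rgs16 (0.32 and 0.36), Pdcd1 and Lgals1 (0.27 and 0.36), and for Tigit they were Pdcd1, Lag3 and AW112010. Cd160 had other company: the chemokine gene Xcl1 (0.26 and 0.29), Cd7 (0.24 and 0.33) and the Ly49 family gene Klra7 (0.22 and 0.24). For Cd244a they were Ifitm1, Fcer1g and S100a4 at 0.16 to 0.32, and for Btla no gene passed 0.06 on both days, which is too weak to read.

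Large clonotypes of CD8 T cells differed among themselves in how much of each receptor they held. At day 13, 10 clonotypes had at least 10 cells (195 cells), and Pdcd1 ranged over them from 176 to 756 CPM, Tigit from 105 to 476 and Havcr2 from 0 to 151, with 2 clonotypes at 0. At day 19, 5 clonotypes (146 cells) ranged for Pdcd1 from 424 to 771 CPM, for Lag3 from 300.5 to 759 and for Havcr2 from 79.2 to 180.1. Every clonotype of this size held Pdcd1, Ctla4, Lag3 and Tigit. Btla was at 0 in 6 of the 10 and 3 of the 5.

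The largest clonotypes show the spread. The largest CD8 clonotype of day 13 (30 cells of set 2, TRAV5-1 and TRBV1) had 597 CPM of Pdcd1 and 97.6 of Havcr2, while another of 27 cells in the same set (TRAV7-1 and TRBV12-1) had 379 of Pdcd1 and no UMI of Havcr2, an exact upper limit of 15.5 CPM. The largest of day 19 (57 cells of set 2, TRAV6D-5 and TRBV26) had 721 CPM of Pdcd1, 706 of Lag3 and 180.1 of Havcr2. Among CD4 T cells the largest clonotype of day 13 had 6 cells, 2 with a Foxp3 UMI, with 1519.5 CPM of Tigit (interval 1199 to 1899) and 1066 of Lag3 (800.5 to 1390.4). The largest of day 19 had 16 cells, none with a Foxp3 UMI, with 628 CPM each of Pdcd1 and Lag3 and 155 of Havcr2.

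Of the 3 largest CD8 clonotypes of each day, 1 of day 13 and 2 of day 19 used the same segments, TRAV7D-2 and TRAJ7 with TRBV16 and TRBJ2-7. They were singled out after their values were seen. Their CDR3 nucleotide sequences are printed to show how close the antigen receptors of these clonotypes are, with capitals at the positions that differ among the 3 clonotypes.
Day 13 CD8 clone 2, alpha: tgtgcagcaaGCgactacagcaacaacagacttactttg
Day 19 CD8 clone 2, alpha: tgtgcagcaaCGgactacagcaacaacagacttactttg
Day 19 CD8 clone 3, alpha: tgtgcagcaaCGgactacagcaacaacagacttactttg
Day 13 CD8 clone 2, beta: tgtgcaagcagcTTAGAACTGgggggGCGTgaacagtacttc
Day 19 CD8 clone 2, beta: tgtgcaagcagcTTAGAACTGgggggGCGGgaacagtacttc
Day 19 CD8 clone 3, beta: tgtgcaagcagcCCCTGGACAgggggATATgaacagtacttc
The alpha sequences (39 bases) are identical in both day-19 clonotypes and differ from that of day 13 at 2 positions. The beta sequence (42 bases) of day 19 clone 2 differs from that of day 13 at 1 position, and that of clone 3 at 12.

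All CD8 T cells with these 4 segments, 34 at day 13 and 62 at day 19, held on average 4.12 and 4.21 of the 8 receptors, against 3.09 and 3.84 in the expanded cells with other segments. Havcr2 was at 158 and 159 CPM in them, against 63.9 and 120.0 in the other expanded cells. These clonotypes were picked from the largest, and all clonotypes of at least 10 cells, which include them, held 3.21 and 4.11 receptors on average and Havcr2 at 82.9 and 148 CPM, so at day 19 the values with these segments lay close to those of large clonotypes in general. At least 3 receptors were found in 88.2% and 96.8% of them, against 68.4% and 86.3%, and 73.3% and 94.5% in all clonotypes of at least 10 cells. Pdcd1 differed less, at 534 and 526 CPM against 433 and 554, and Ctla4 was lower in them, at 162 and 268 CPM against 290.2 and 318. The segments occurred in 3 sets at day 13 and in 2 at day 19. However, the CDR3 pair of day 13 clone 2 was itself found in 33 cells over 3 sets. The pairs of day 19 clones 2 and 3 were found in 39 and 23 cells, over 2 sets and 1 set. The cells with these segments are thus mostly those of the pairs already picked, and the cells of a clonotype are no replicates.

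Protein was read by antibody tags for 5 of the 8 receptors: CD279 (PD-1), CD152 (CTLA-4), CD223 (LAG-3), TIGIT and CD366 (TIM-3). Their differences with the RNA were small. In CD8 T cells with a Pdcd1 UMI the CD279 tag was at 12.4 per 1000 antibody UMIs at day 13 and 12.8 at day 19, against 12.1 and 12.2 without one, higher in 4 of 4 sets on both days. Ctla4 RNA made no such difference to CD152 (17.7 and 17.7 at day 13, 16.4 and 16.4 at day 19). The CD366 tag was at 4.76 with and 3.32 without a Havcr2 UMI at day 13, higher in 3 of 4 sets, but the medians were 3.26 and 3.17. At day 19 it was 3.50 and 3.24, higher in 4 of 4 sets. The median log2 ratio over the 5 receptors was 0.02.

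For CTLA-4 and TIGIT the tags lay close together in classes whose RNA differed. CD152 was at 17.7 in CD8, 17.6 in Foxp3-negative and 17.6 in Foxp3-positive CD4 T cells at day 13, while Ctla4 RNA was at 184, 212 and 699.9 CPM. TIGIT was at 29.0, 28.9 and 28.2. The 3 isotype controls lay between 1.24 and 2.67 on both days. The CD4 tag was at 0.719 in CD8 and 1.11 in Foxp3-negative CD4 T cells at day 13 and at 0.686 and 1.56 at day 19, and the CD8a tag at 2.11 and 1.95, then 2.38 and 2.01, so the coreceptor tags separated the RNA-defined classes only in part. The median antibody depth was 4295 UMIs per cell at day 13 and 2256 at day 19.

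The other genes of the pathway were taken from lists of ligands, intracellular partners, paired activating receptors, other inhibitory receptors and transcription factors. The list of other inhibitory receptors also holds genes that do not encode inhibitory receptors, among them Entpd1, Cd38 and Tnfrsf18, so its counts are of list members. In CD8 T cells by day, 1 of the 9 ligand genes with at least 100 UMIs was at least 1.5-fold higher at day 19 and 4 were lower, with a median log2 ratio of -0.45 (all genes -0.04). Of all genes 5.26% were that much higher and 7.33% that much lower, so 1 gene of a list is near the share over all genes. Summed, the 5 dendritic cell markers were lower in the same cells, at 149 CPM (sets 69.0 to 164) and 54.0 (22.3 to 89.5), most of it Fscn1 (136 and 47.3). Cd209a alone was higher (1.57 and 2.50), and the part of the dendritic cell markers in the ligand values was not tested. The PD-1 ligand genes parted: Cd274 (PD-L1) was at 40.4 CPM against 70.3, a ratio of -0.80, and Pdcd1lg2 (PD-L2) at 31.3 against 21.2, a ratio of 0.56 that is short of 1.5-fold. Lgals9 (galectin-9) was at 196 against 349 CPM and Cd86 at 39.7 against 66.7. Among the 6 paired activating receptors Tnfrsf9 (4-1BB) was higher, at 296 against 127 CPM (ratio 1.22), and Cd28 lower, at 108 against 165 (-0.62). The 9 intracellular partners held 1 lower gene, Sh2d1a (SAP, the adaptor of 2B4), at 83.0 against 127 CPM. Of 12 genes listed as other inhibitory receptors 3 were higher (Cd200r1, Klrc1 and Entpd1, ratios of 1.01, 0.66 and 0.79) and Klrg1 was lower (-1.61). Of 17 transcription factors Tcf7 alone was past 1.5-fold, at -0.69.

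Between expanded and single CD8 T cells more members of these lists passed 1.5-fold, against 10.7% of all genes higher and 7.67% lower. Ligands were higher for 5 of 9 genes, among them Cd48 (344 against 209.9 CPM), Cd80 and Fgl2, and none was lower. Activating receptors were higher for 4 of 6, among them Tnfrsf9 (331 against 117 CPM) and Cd226, the rival of TIGIT (117 against 73.9). Of the 11 genes listed as other inhibitory receptors 6 were higher, among them Entpd1 (CD39, 94.02 against 19.4 CPM) and Cd38 (61.5 against 20.1), and 1 was lower. Of 17 transcription factors 7 were higher, among them Tox (109.6 against 39.1 CPM, a factor of exhausted cells) and Id2 (342 against 152), and 5 were lower, among them Id3 (5.604 against 70.8) and Tcf7 (39.0 against 260.4). Of the 9 intracellular partners only Sh2d2a passed 1.5-fold (563 against 337 CPM), and Ptpn11 (Shp2) was at 48.9 against 43.6.

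Between Foxp3-positive and Foxp3-negative CD4 T cells, 7.81% of all genes were at least 1.5-fold higher and 5.05% lower. Tnfrsf9 (857 against 216 CPM), Tnfrsf4 (1194 against 448) and Icos (481 against 316) were higher and Cd226 (31.4 against 69.6) and Cd96 (29.1 against 56.3) lower among the 6 activating receptors, the last 2 being rivals of TIGIT for its ligands. Of 11 genes listed as other inhibitory receptors 5 were higher, among them Klrg1 (82.1 against 9.45 CPM), and Klrc1 was lower (6.87 against 57.1). Ligands were higher for 3 of 8 genes, among them Cd80 (30.4 against 12.7 CPM) and Cd86 (102 against 61.7), both also genes of the dendritic cells whose markers were high in Foxp3-positive cells at day 13. Their part in the 2 values was not tested. Intracellular partners held 2 lower genes, Sh2d1a (94.8 against 199 CPM) and Ptpn11 (49.4 against 94.9), and of 16 transcription factors 3 were higher (Prdm1, Ikzf2 and Maf) and 4 lower, among them Tcf7 (52.0 against 322).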

How the data were processed

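Each day has 1 unfiltered matrix, deposited as raw counts of UMIs for genes, antibody tags and multiplexing tags over 736611 (day 13) and 735849 (day 19) barcodes, made with Cell Ranger 4 per the file headers. The submitters' processing notes also name bcl2fastq 2.20, Cell Ranger 4.0.0, STAR 2.7.5c, Seurat, R 4.1.2 and mm10, with no role or order. TCR contig tables carry UMI counts per contig, as deposited. Of 8359 and 4295 contig barcodes, 4632 and 3215 had at least 5000 gene UMIs, the mitochondrial limit removed none, and the macrophage limit left 3775 and 2159. No doublet caller was run, barcodes with RNA of both coreceptors were left out, and alternatives without the 8% of cells with the most UMIs, or with a clear multiplexing tag, were tried.

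UMIs were summed per class and divided by all gene UMIs. Intervals are exact Poisson intervals for levels, exact conditional intervals for ratios of 2 counts and Clopper-Pearson intervals for shares, at 95% and for counting error only. UMIs are molecules, but molecules of 1 cell are not independent. A sum of 0 counted as 3, and no ratio was given where both sums were at most 3. A call is a 1.5-fold difference among genes with at least 100 UMIs in the 2 groups together. For shares, receptors per cell and pairs, each cell was thinned at random to 5000 UMIs, which left out no cell. The log2 ratios, their intervals, the thinning and the odds ratio were tested on simulated data. Versions were python 3.11.15, numpy 2.4.6, scipy 1.17.1, pandas 2.3.3 and matplotlib 3.10.9.

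The receptors, the pathway and marker lists and the alternatives were chosen with earlier results of these data known, and the alternatives without cells bearing dendritic, B or plasma cell markers, or NK cell or choroid plexus markers, were added after seeing the data, as was leaving out each contig set for the comparisons by clonotype and day, between CD8 and CD4 T cells, by Tcf7 and by cycling. Named genes are the 8 receptors, members of the pathway lists, the 3 genes closest to each receptor (highest Pearson r of log2 of thinned UMIs + 1 over CD8 T cells, the lower of the 2 days, genes in at least 5% of cells), and the 3 largest CD8 and 2 largest CD4 clonotypes of each day. Promoter sequences and positions are those of RefSeq, GRCm38.p6, matched by symbol.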

Additional observations from a re-analysis of the deposited data

How the results depend on the processing

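The 8 summary values were recomputed under 26 alternatives, 24 of them planned, which gave 166 values. None changed sign, 154 moved by less than the spread over contig sets and 12 by more. Of 1273 ratios of single receptors, 1242 moved by less than that spread, 31 by more, and no called ratio changed sign. A limit of 5% mitochondrial UMIs changed nothing. For cells with at least 10000 UMIs, the median log2 ratio was 1.15 for expanded over single CD8 T cells and 0.18 for day 19 over day 13 in Foxp3-positive CD4 T cells, the median log2 odds ratio of pairs 0.851, and the median tag ratio 0.049. The median of pairs was 2.13 with a minimum of 1000 UMIs and 1.88 without thinning, against 1.40. The Foxp3-positive day ratio was 0.25 without any UMI of C1qa, Lyz2 and Csf1r, 0.67 without the 8% of cells with the most UMIs and 0.26 with a top multiplexing tag of at least 80%, against 0.43. The Foxp3-negative day ratio was 0.96 with equal weight to each set. Leaving out 1 contig set at a time gave 0.39 to 0.66 for the day ratio in CD8 T cells, 0.64 to 0.92 in Foxp3-negative and 0.25 to 0.48 in Foxp3-positive CD4 T cells, 0.36 to 0.93 for Foxp3-positive over Foxp3-negative cells, 1.49 to 1.79 for expanded over single cells, 9.48 to 19.0 points for the share with at least 3 receptors, 1.10 to 1.44 for pairs and 0.012 to 0.024 for tags. Without day-19 set 2, the day ratio in CD8 T cells was 0.39, the share 9.48 points and the ratio of Foxp3-positive over Foxp3-negative cells 0.93, and without day-13 set 2 the Foxp3-positive day ratio was 0.25. The cause of these shifts was not tested. No paired analysis was possible because each day is 1 capture, the labels do not pair the sets of the 2 days, and no result comes from a test. Comparisons between cells of the same capture are described set by set.

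Precision is limited by the 150 and 125 Foxp3-positive cells, by the few UMIs of Cd244a, Cd160 and Btla in CD4 T cells, and by having 1 capture per day, which leaves the spread between animals unmeasured.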
